A study of Mus musculus with 5 samples.

Results

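The 10 genes described here encode mitochondrial chaperones and proteases: Hspd1, Hspe1, Hspa9, Trap1, Lonp1, Clpp, Clpx, Yme1l1, Afg3l2 and Oma1. They were chosen by gene symbol, and all 10 had their own entry among the 11048 named genes of the deposited table. All 10 were also among the 10542 genes abundant enough to be tested. Their transcripts were measured by RNA sequencing of liver from db/db mice, which lack a working leptin receptor and become obese and diabetic. Both groups carried this genotype, which the series' design text gives. The vehicle group held 3 libraries. The SR4 group held 2 libraries from mice given SR4 at 10 mg/kg by oral gavage, and treatment lasted 5 weeks in both groups, following an acclimatization of 1 week. The series title calls SR4 a proton transporter that fatty acids activate. The labels give neither sex nor age, and no non-diabetic group was analysed here. Since they also do not tie each library to a separate mouse, p-values speak only of the variation among these libraries, which may be technical.

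Most mitochondrial proteins are made in the cytosol and enter the organelle unfolded. In the matrix, mitochondrial Hsp70 (Hspa9) pulls them in, and the Hsp60 chaperonin (Hspd1) with its Hsp10 lid (Hspe1) folds them, while Trap1 is the Hsp90 relative of mitochondria. Lonp1 and the ClpXP complex (Clpp with Clpx) degrade damaged or surplus proteins in the matrix. Yme1l1, Afg3l2 and Oma1 do so in the inner membrane, where Oma1 and Yme1l1 also cut the fusion protein Opa1. Several of these genes are known as targets of the mitochondrial unfolded protein response, and the liver, rich in mitochondria, expresses all of them.

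Promoter windows are shown for Hspd1 and Hspe1, because these genes start head to head, for Clpp, because it had the largest fitted change, and for Trap1 and Lonp1, because their values moved most alike. The sequences are RefSeq's on build GRCm38.p6, from 250 bases before the start site to 50 bases from it on, written 5′ to 3′ along the gene's own strand. Capitals mark every match to the motifs listed after the sequences. The windows are, in order, chr1:55088194-55088493 on the minus strand, chr1:55087898-55088197 on the plus strand, chr17:56990014-56990313 on the plus strand, chr16:4077761-4078060 on the minus strand and chr17:56626854-56627153 on the minus strand.
Hspd1: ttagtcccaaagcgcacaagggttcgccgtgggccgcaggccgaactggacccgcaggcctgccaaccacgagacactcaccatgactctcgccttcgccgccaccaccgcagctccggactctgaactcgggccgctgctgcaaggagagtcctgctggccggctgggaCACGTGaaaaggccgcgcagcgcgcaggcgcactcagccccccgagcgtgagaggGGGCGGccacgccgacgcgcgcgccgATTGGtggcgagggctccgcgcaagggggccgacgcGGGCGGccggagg
Hspe1: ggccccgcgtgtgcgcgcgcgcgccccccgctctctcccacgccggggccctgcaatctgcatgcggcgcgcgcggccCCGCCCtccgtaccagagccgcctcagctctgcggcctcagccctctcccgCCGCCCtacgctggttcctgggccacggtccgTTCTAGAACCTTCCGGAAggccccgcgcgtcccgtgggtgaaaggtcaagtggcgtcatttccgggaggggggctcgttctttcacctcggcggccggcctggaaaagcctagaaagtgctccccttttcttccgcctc
Clpp: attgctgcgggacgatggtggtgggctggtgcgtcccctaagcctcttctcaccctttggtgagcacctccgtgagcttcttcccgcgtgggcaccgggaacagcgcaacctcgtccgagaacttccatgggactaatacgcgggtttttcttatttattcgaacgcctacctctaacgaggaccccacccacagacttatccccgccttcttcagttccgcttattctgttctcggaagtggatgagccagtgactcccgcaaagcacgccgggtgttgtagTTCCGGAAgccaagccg
Trap1: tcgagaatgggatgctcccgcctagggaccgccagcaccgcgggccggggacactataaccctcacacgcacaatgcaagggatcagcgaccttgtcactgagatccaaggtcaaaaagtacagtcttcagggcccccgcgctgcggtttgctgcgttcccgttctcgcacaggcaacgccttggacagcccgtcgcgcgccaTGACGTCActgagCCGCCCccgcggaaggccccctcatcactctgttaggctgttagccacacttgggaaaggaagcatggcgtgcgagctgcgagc
Lonp1: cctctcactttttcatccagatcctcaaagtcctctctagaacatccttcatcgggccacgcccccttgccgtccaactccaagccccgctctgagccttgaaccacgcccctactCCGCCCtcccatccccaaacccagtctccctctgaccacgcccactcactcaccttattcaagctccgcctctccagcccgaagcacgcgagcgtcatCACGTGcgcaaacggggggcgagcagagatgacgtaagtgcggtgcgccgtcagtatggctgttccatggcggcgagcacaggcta

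Windows were available for 8 of the 10 genes, and none is shown for Hspa9 and Afg3l2. Hspd1 and Hspe1 lie head to head on chromosome 1 with start sites 95 bases apart. This Hspd1 start lies inside the Hspe1 gene, so the genes overlap between these start sites. Between −89 and −72 bases from its start site (counted as 0), the Hspe1 window holds 3 heat shock units in a row, TTCNNGAA and GAANNTTC overlapping each other. The same bases lie in the window of a second Hspd1 start site, which is not shown, and not in the Hspd1 window shown. Such a row of 3 units was found in 0.603% of all 32851 RefSeq windows of this length. Taken singly, GAANNTTC was in 7.86% and TTCNNGAA in 8.52% of all windows, and the Clpp window has 1 TTCNNGAA, from 33 to 40 bases after its start.

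The Hspd1 window has an E-box, CACGTG, from −80 to −75, as does the Lonp1 window from −36 to −31; this motif was in 7.15% of all windows. The Trap1 window holds a cAMP response element, TGACGTCA, from −47 to −40, found in 1.79% of windows. An NRF1 site, GCGCATGCG (1.75% of windows), was found in the Clpx window from −87 to −79. The GC box GGGCGG was in 7 of the 8 genes' windows against 35.7% of all windows, and CCAAT in 3 of 8 against 37.4%. The C/EBP-ATF response element TGATGNAA (3.97% of windows), the C/EBP site TTGCNNAA (10.8%) and the TATA box TATAAA (13.6%) were in 0 of the 8. All motifs were searched on both strands, and TTCNNGAA and GAANNTTC can overlap. A match is a description of letters and not a measured binding site.

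All genes were compared as normalised counts, which are read counts per library of a common size. Read totals recovered from the deposited values ran from 22878374 to 28113096 per library. Per kilobase of transcript, which allows levels of different genes to be compared, the vehicle levels spanned a wide range. Hspa9 was highest at 4131 ± 241 (SD, n = 3) normalised counts per kilobase, above 95.7% of the 9792 genes with a known length. Hspd1 at 3086 ± 89.0 and Trap1 at 2880 ± 158 followed, and their vehicle ranges overlapped. Hspe1 at 2068 ± 246 and Lonp1 at 1867 ± 105 overlapped as well. Below them came Clpp at 1107 ± 124, Afg3l2 at 887 ± 29.7 and Clpx at 652 ± 107, each separated from its neighbours in every vehicle library. Yme1l1 at 298 ± 30.3 and Oma1 at 266 ± 7.95 were lowest, still above 64.9% and 62.1% of genes, and their vehicle ranges did not overlap. By this measure, which uses a single transcript length per gene, the chaperonin's lid gene Hspe1 lay below its ring gene Hspd1 in every library. The part of transcript length and of reads lost to pseudogenes in this difference was not tested.

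**Figure D1:**
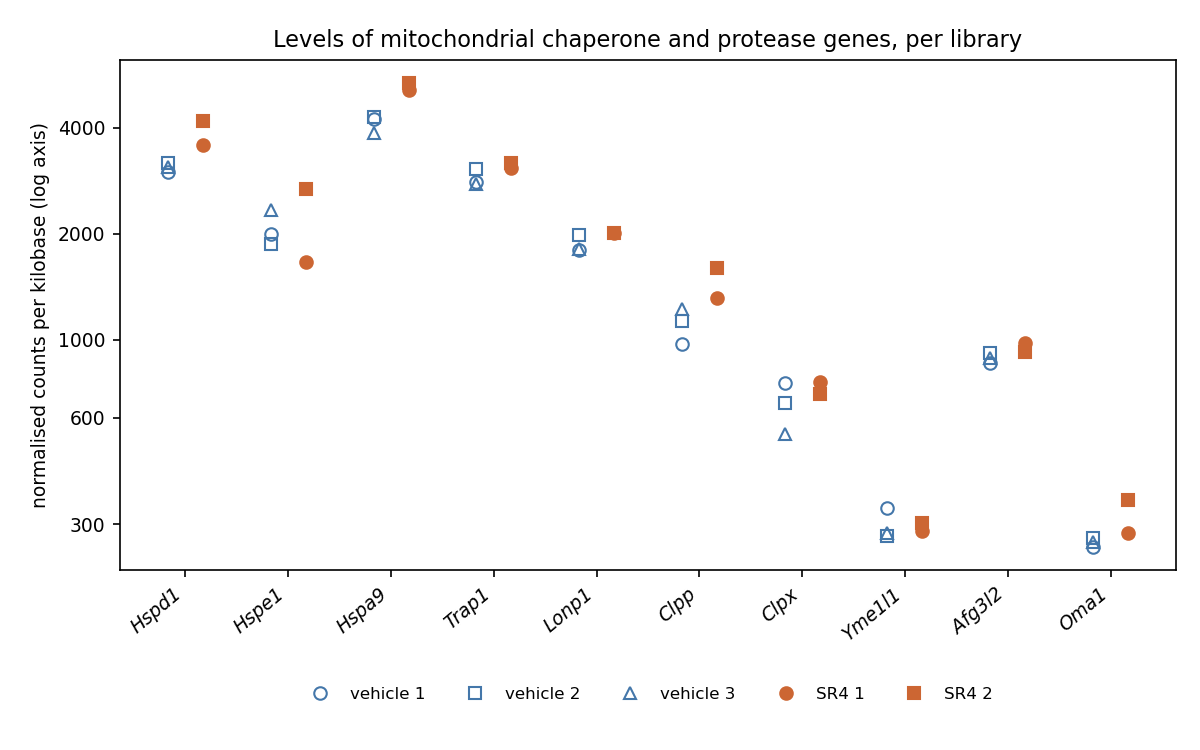
Normalised counts per kilobase of transcript (log axis) of the 10 genes, with 1 point per library, open symbols for the 3 vehicle and filled symbols for the 2 SR4 libraries. The chaperone genes Hspa9, Hspd1 and Trap1 lie highest and Yme1l1 and Oma1 lowest in both groups.

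Across the 10 genes, SR4 livers had slightly more transcript of 9 and slightly less of 1. Of all genes tested, 49.4% were fitted above 0. No change of the 10 passed limma's test at a Benjamini-Hochberg adjusted p of 0.05. The median log2 fold change of the 10 was 0.15, against −0.00426 for all genes tested. Under the reported scaling, both SR4 libraries lay above all 3 vehicle libraries for 7 of the 10 genes and below them for 0. In this way 21.5% of all genes tested lay above. That scaling divided SR4 values by 0.945 and 0.956 and vehicle values by 1.01 to 1.08. The count was not repeated with equal totals. The fits of Trap1, Lonp1 and Afg3l2 then lay below 0, so their separation cannot hold there. Other narrow separations may not hold either. Hspd1, Hspa9 and Clpp had an unadjusted p under 0.05, all 3 in the higher direction, beside 10.5% of all genes tested. At the adjusted threshold limma called 1.31% of genes, 46 higher and 92 lower (37 and 135 with equal totals), and 0 of the 10. With edgeR's quasi-likelihood test on recovered reads, 1.27% of genes and again 0 of the 10 were called, with 3 at an unadjusted p under 0.05. DESeq2 called 10.2% of genes and 1 of the 10, Hspa9.

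For part of the 10 genes, the direction of the small difference rested on the scaling of the libraries. With values scaled to equal totals only, the median of all genes moved to −0.126 and that of the 10 to 0.0284. Of the 10, 5 stayed above 0, beside 33% of all genes tested. The distance between those medians, 0.154, was nearly that of the reported scaling, 0.155. With equal totals 0 of the 10 had an unadjusted limma p under 0.05. Of all genes tested, 5.97% then had such a p in the higher direction. The count of 138 genes called by limma fell to 8 without vehicle library 2, 5 without vehicle library 3 and 7 without SR4 library 2. In bulk liver, fewer cells of a type and less RNA per cell cannot be told apart.

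**Figure D2:**
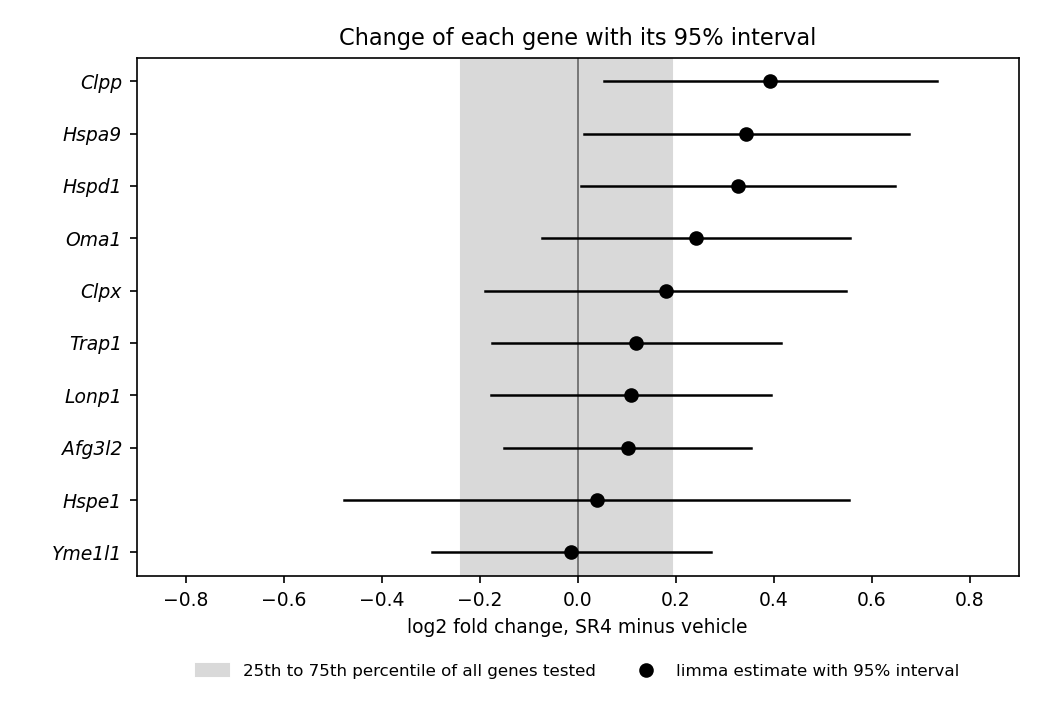
Log2 fold change of each gene, SR4 minus vehicle, with its 95% interval from limma (points and lines), ordered by size. The grey band spans the 25th to 75th percentile of all genes tested. Under the reported scaling, the intervals of Clpp, Hspa9 and Hspd1 lie above 0 before adjustment, and those of the other 7 genes include 0.

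Hspa9, the mitochondrial Hsp70 that drives import and folding (chromosome 18, 34937414 to 34954357, minus strand, GENCODE on GRCm38), had 12950, 13090 and 11750 normalised counts in vehicle libraries 1, 2 and 3. SR4 libraries 1 and 2 had 15640 and 16320. Both SR4 values were above every vehicle value, and the groups did not overlap. The fitted fold change was 1.27 (95% interval 1.01 to 1.60; log2 0.34 ± 0.14 SE), with a limma adjusted p = 0.22. DESeq2 gave a log2 fold change of 0.34 with an adjusted p = 0.0463, and edgeR an adjusted p = 0.21. The limma adjusted p, like edgeR's, missed the threshold, so the call rested on DESeq2.

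Hspd1, the Hsp60 chaperonin (chromosome 1, 55077835 to 55088243, minus strand), had 7264, 7695 and 7474 normalised counts in the vehicle libraries and 8671 and 10150 in the SR4 libraries. The vehicle libraries agreed closely (coefficient of variation 2.88%), and both SR4 libraries were above them, library 2 by more than library 1. The fold change was 1.255 (95% interval 1.01 to 1.57), with a limma adjusted p = 0.225.

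Hspe1, the Hsp10 lid (chromosome 1, 55088132 to 55091307, plus strand), differed between the 2 SR4 libraries. Its normalised counts were 1543, 1445 and 1813 in vehicle, 1287 in SR4 library 1 and 2081 in SR4 library 2. The first SR4 library was thus the lowest of all 5 and the second the highest, so the groups overlapped fully. The fold change was 1.03 (95% interval 0.719 to 1.47; limma adjusted p = 0.937), and its log2 value took the other sign without vehicle library 2 or SR4 library 2. The coefficient of variation was 33.3% in SR4 and 11.9% in vehicle.

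Whether lid and ring transcripts kept their proportion was examined as a ratio within each library. Hspe1 divided by Hspd1 gave 0.212, 0.188 and 0.243 in vehicle and 0.148 and 0.205 in SR4. The SR4 mean of 0.177 ± 0.04 (n = 2) was lower than the vehicle mean of 0.214 ± 0.0274 (n = 3), but SR4 library 2 lay inside the vehicle range. A two-sided exact permutation test gave p = 0.4, where the 10 possible arrangements allow no p below 0.1. The log2 difference of −0.29 became −0.06 without SR4 library 1, −0.52 without SR4 library 2 and −0.20 without vehicle library 3. The genes share 112 exonic bases on opposite strands, which are 4.24% of Hspd1's and 7.60% of Hspe1's exonic length. The library kit does not keep strand, so reads there cannot be told apart. GENCODE names 5 pseudogenes of Hspd1 and 6 of Hspe1, with 0 in the deposited table, and how reads matching several places were counted is not given in the sources used here.

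Trap1, the mitochondrial Hsp90 relative (chromosome 16, 4039971 to 4077827, minus strand), had 6493, 7103 and 6444 normalised counts in vehicle and 7145 and 7366 in SR4. SR4 library 1 exceeded vehicle library 2 by little, and the fold change was 1.09 (95% interval 0.886 to 1.33; limma adjusted p = 0.617).

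**Figure D3:**
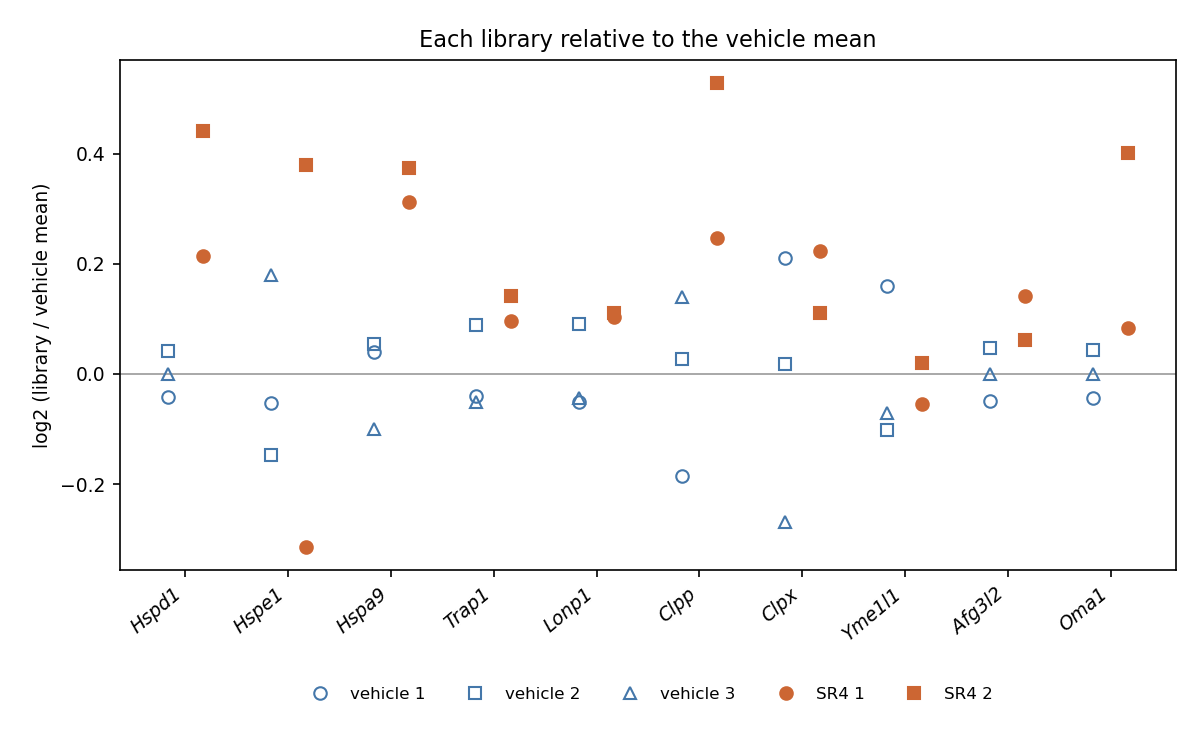
Log2 of each library's normalised count over the vehicle mean for the 10 genes, with open symbols for the 3 vehicle and filled symbols for the 2 SR4 libraries. Both SR4 points lie above all vehicle points for 7 genes, and the 2 SR4 points of Hspe1 lie on opposite sides of the vehicle libraries.

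Among the matrix proteases, Clpp, the proteolytic chamber of ClpXP (chromosome 17, 56990305 to 56996188, plus strand), had the largest fitted difference of the 10 genes. Its normalised counts were 957, 1109 and 1199 in vehicle and 1292 and 1570 in SR4. All vehicle libraries were below both SR4 libraries, though vehicle library 3 came near SR4 library 1. The fold change was 1.31 (95% interval 1.04 to 1.66; log2 0.39 ± 0.14 SE), with a limma adjusted p = 0.18, an edgeR adjusted p = 0.187 and a DESeq2 adjusted p = 0.169.

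Clpx, the unfoldase that feeds ClpP (chromosome 9, 65294260 to 65330658, plus strand), had 2175, 1905 and 1561 normalised counts in vehicle and 2196 and 2030 in SR4. Vehicle library 1 lay between the 2 SR4 libraries, and the fold change was 1.13 (95% interval 0.878 to 1.46; limma adjusted p = 0.54). The ratio of Clpp to Clpx within a library was 0.44, 0.582 and 0.768 in vehicle and 0.588 and 0.773 in SR4. The vehicle range held SR4 library 1 and nearly reached library 2 (exact two-sided permutation p = 0.4). Its log2 difference of 0.21 was 0.0124 without vehicle library 1, 0.0164 without SR4 library 2, 0.41 without vehicle library 3 and 0.41 without SR4 library 1. With the chaperonin ratio, 2 ratios were tested, and both had a Benjamini-Hochberg adjusted p of 0.4 by this exact test.

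Lonp1, the other soluble matrix protease (chromosome 17, 56614297 to 56626887, minus strand), had 5322, 5867 and 5345 normalised counts in vehicle and 5920 and 5952 in SR4. The SR4 libraries were nearly equal and just above vehicle library 2, with a fold change of 1.08 (95% interval 0.885 to 1.31; limma adjusted p = 0.642).

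The 3 inner-membrane proteases had fold changes from 0.992 to 1.18, and none passed. Yme1l1, which faces the intermembrane space (chromosome 2, 23156369 to 23199260, plus strand), had 1565, 1305 and 1334 normalised counts in vehicle and 1349 and 1421 in SR4. The SR4 values lay within the vehicle range, and the fold change was 0.992 (95% interval 0.814 to 1.21; limma adjusted p = 0.965). It was the only one of the 10 with a fitted value below 0 under the reported scaling. Afg3l2, a subunit of the matrix-facing m-AAA protease (chromosome 18, 67404764 to 67449172, minus strand), had 2653, 2837 and 2744 in vehicle and 3027 and 2865 in SR4. Its fold change was 1.07 (95% interval 0.901 to 1.28; limma adjusted p = 0.62), with SR4 library 2 barely above vehicle library 2.

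Oma1, the stress-activated protease that cuts Opa1 and Dele1 (chromosome 4, 103313812 to 103371868, plus strand), had 495, 525 and 510 normalised counts in vehicle and 540 and 673 in SR4. Vehicle libraries varied little (coefficient of variation 2.97%), SR4 library 1 was just above them and library 2 well above. The fold change was 1.18 (95% interval 0.951 to 1.47; limma adjusted p = 0.342). Over the 10 genes, no interval reached below 0.719-fold or above 1.66-fold.

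The 2 SR4 libraries did not agree equally across the genes. SR4 library 2 was the higher one for 8 of the 10, against 49.3% of all genes tested. Among the lists described below, it was higher for 83.3% of cochaperones, 69.2% of other mitochondrial proteases and 100% of protease scaffolds. The share was 85.7% for substrates, 85.7% for import genes and 80% for reference genes of mitochondrial content. For genes linked to the mitochondrial unfolded protein response it was 42.9%, and for relatives in other compartments 33.3%. SR4 library 2 exceeded library 1 by 1.62-fold for Hspe1, 1.246-fold for Oma1, 1.22-fold for Clpp and 1.17-fold for Hspd1. For Hspa9, Trap1 and Lonp1 that ratio was 1.04, 1.03 and 1.005, and Clpx and Afg3l2 were the genes with less in library 2. Without SR4 library 1 the median log2 fold change of the 10 was 0.26, and without SR4 library 2 it was 0.12.

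Likeness of pattern was measured as the root mean square difference of log2 values over the 5 libraries, after each gene's own mean was taken out. Trap1 and Lonp1 were nearest each other, at 0.014, and no other tested gene came nearer to either. Among the members only, Afg3l2 was nearest to Lonp1 at 0.0389, and Oma1 to Hspd1 at 0.0508. Of all tested genes, 61 came nearer to Afg3l2 than Lonp1 did, and 54 nearer to Oma1 than Hspd1 did. Hspe1 was the member farthest from its chaperonin partner Hspd1, at 0.235. Of the genes tested, leaving out predicted and unnamed ones, Sdhc (a subunit of respiratory complex II) was most like Hspd1 at 0.0205, with 5999 ± 47.3 normalised counts in vehicle and 7609 ± 831 in SR4, followed by Wdr53 at 0.0233 and Ascc1 at 0.0282. Most like Clpp were B9d2 at 0.0203, Mrps27 (a mitochondrial ribosomal protein) at 0.0223 and Atp5d (a subunit of ATP synthase) at 0.028. None of these 6 passed limma's test. With 5 libraries these are descriptions, and many genes share so simple a pattern.

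The genes around this machinery were examined as lists matched by function, and limma and edgeR each called 1 of their genes, the citrate synthase gene Cs. DESeq2 called 5, which were Cs, Pdk4, Mtx1, Eif2ak3 and Hsp90aa1. Of all genes tested, limma called 1.31%, edgeR 1.27% and DESeq2 10.2%. Limma's counts and p-values follow, and with equal totals the fits of all lists shifted down. Of 12 cochaperones and assembly chaperones, among them an Hsp70 relative of the cytosol, 0 passed with any of the 3 tools. The median log2 fold change of all 12 was 0.07. Grpel2, a nucleotide exchange factor of mitochondrial Hsp70, had 1024 ± 148 normalised counts in vehicle and 686 ± 132 in SR4 (limma adjusted p = 0.13). Dnajc30 had 633 ± 86.5 and 845 ± 39.3 (adjusted p = 0.158), and Bcs1l, which assembles complex III, had 345 ± 16.2 and 449 ± 78.7 (adjusted p = 0.218).

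Among 13 other mitochondrial proteases and peptidases, 0 passed with any of the 3 tools. All 13 were fitted above 0 (49.4% of all genes tested were), with a median log2 fold change of 0.12, but with equal totals 7 of the 13 were (33% of all genes). The nearest to the threshold was Parl, the rhomboid protease that cuts Pink1, at 583 ± 44.6 in vehicle and 741 ± 43.2 in SR4 (limma adjusted p = 0.167). Of 6 scaffolds and regulators of these proteases 0 passed with any of the 3 tools. Phb2, a prohibitin that encloses the m-AAA protease, had 5359 ± 489 and 6964 ± 436 (adjusted p = 0.173), and C1qbp, a matrix protein, had 2379 ± 223 and 2974 ± 254 (adjusted p = 0.209). The known substrates of the 6 proteases, of which 14 were tested, gave 0 passes with limma and edgeR and 1, Pdk4, with DESeq2. Pdk4, a pyruvate dehydrogenase kinase, had 582 ± 294 in vehicle and 158 ± 55.9 in SR4 (limma adjusted p = 0.0958, DESeq2 adjusted p = 0.000307), and Pink1, the kinase that marks damaged mitochondria, 7072 ± 523 and 8935 ± 606 (adjusted p = 0.214).

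Mitochondrial protein import was covered by 21 genes, of which 0 passed with limma and edgeR and 1, Mtx1, with DESeq2. Fits above 0 numbered 16 (9 with equal totals), and the median log2 fold change was 0.10. Mtx1, an outer-membrane import component, had 920 ± 66.3 normalised counts in vehicle and 1243 ± 5.44 in SR4 (limma adjusted p = 0.0985, DESeq2 adjusted p = 0.0325). Timm17b of the inner-membrane translocase had 858 ± 45.6 and 1117 ± 90.1 (adjusted p = 0.128), and Tomm40, the outer-membrane channel, had 1094 ± 155 and 1472 ± 70.7 (adjusted p = 0.151).

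Of 14 genes linked to the mitochondrial unfolded protein response, mostly transcription factors and kinases, 0 passed with limma and edgeR. With DESeq2 1 passed, Eif2ak3. Atf5, a mammalian regulator of that response, had 12330 ± 565 normalised counts in vehicle and 12720 ± 549 in SR4 (limma adjusted p = 0.879). Atf4 had 2132 ± 413 and 2448 ± 46.8 (adjusted p = 0.513), and Ddit3, which encodes CHOP, 161 ± 31.3 and 124 ± 40.3 (adjusted p = 0.46). Hsf1, the heat shock factor, had 298 ± 23.7 and 315 ± 82.4 (adjusted p = 0.885). These 4 were chosen after their values were seen. Nearest to the threshold were Eif2ak3, the PERK kinase, with 521 ± 164 and 299 ± 10.2 (limma adjusted p = 0.149, DESeq2 adjusted p = 0.0479), and Sirt3, a mitochondrial deacetylase, with 2559 ± 245 and 3354 ± 225 (adjusted p = 0.151).

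Relatives of the 10 genes in the cytosol, the endoplasmic reticulum and elsewhere numbered 18, of which 0 passed with limma and edgeR and 1, Hsp90aa1, with DESeq2. Fits above 0 numbered 10 (2 with equal totals), and the median log2 fold change was 0.02. Hsp90aa1, a cytosolic Hsp90 and so a relative of Trap1, had 2522 ± 321 normalised counts in vehicle and 1587 ± 121 in SR4 (limma adjusted p = 0.0701, DESeq2 adjusted p = 0.00194). In a reference list of 10 genes for mitochondrial content, 7 were fitted above 0 (6 with equal totals), the median was 0.14 and 1 passed. Cs, citrate synthase, fell from 5426 ± 476 to 2958 ± 349 (fold 0.545, limma adjusted p = 0.0456). Cs also passed under the 11 alternatives that kept all libraries, including edgeR (adjusted p = 0.0491) and DESeq2 (adjusted p = 1.24e-06). On leaving out each of the 5 libraries in turn its log2 fold change ran from −0.996 to −0.756 and the limma adjusted p from 0.05 to 0.181, so the call was lost. Atp5b, a subunit of ATP synthase, had 39890 ± 2794 and 51540 ± 7068 (adjusted p = 0.298). The median of this list was thus close to that of the 10 chaperone and protease genes, and whether mitochondrial content had a part in their values was not tested.

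**Figure D4:**
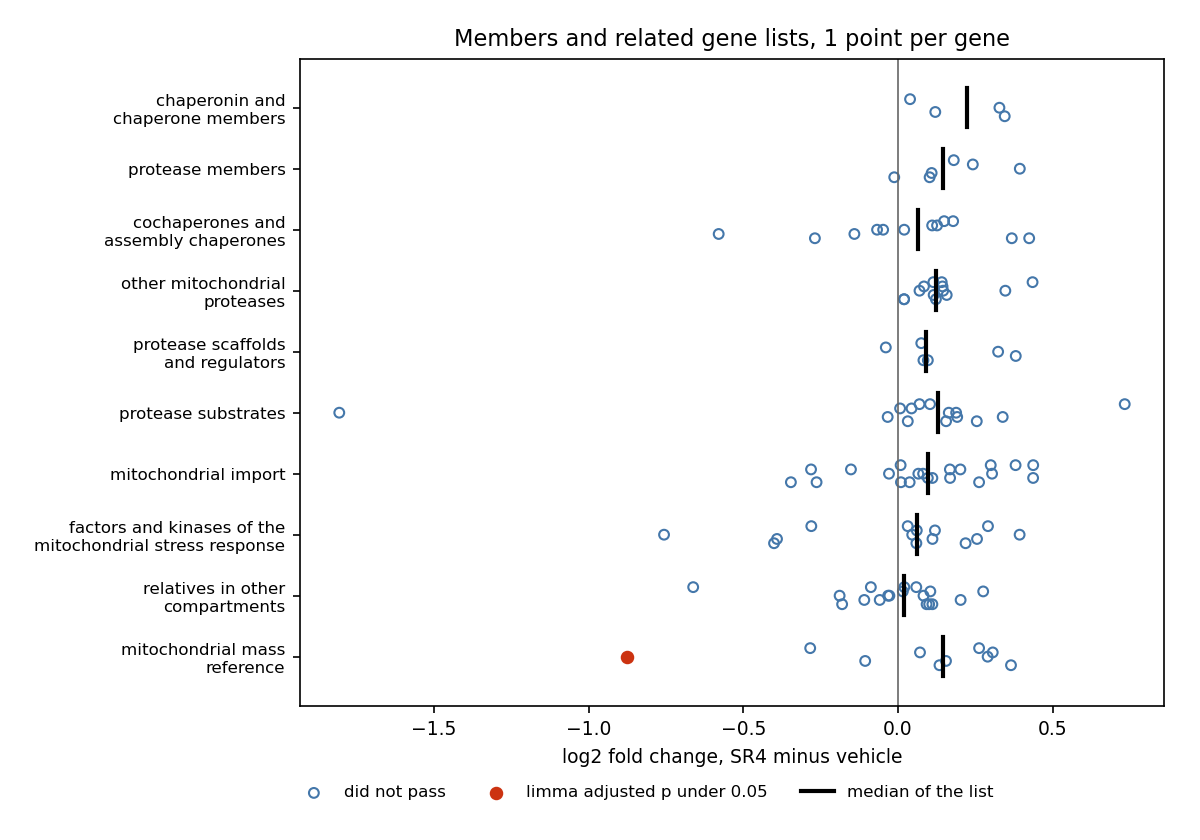
Log2 fold change, SR4 minus vehicle, of every tested gene of the chaperone and protease members and of 8 related lists, with 1 point per gene and the median of each list as a bar. Cs, in the mitochondrial mass reference, is the 1 gene that passed limma's test, and the list medians lie between 0.02 and 0.22 under the reported scaling.

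Other cell types were followed through their markers. Summed hepatocyte markers (6 of 7 listed) ran from 2113000 to 2711000 normalised counts in vehicle and from 2082000 to 2713000 in SR4, while 4 of the 6 were fitted below 0 with a median log2 fold change of −0.41. Kupffer cell and macrophage markers (6 of 7) summed to 4359 to 6615 in vehicle and 2166 to 4354 in SR4, and stellate cell markers (6 of 6) to 7041 to 11990 and 5860 to 7634, with all 6 fitted below 0 in each list. Erythroid markers (4 of 4) summed to 10990 to 14960 and 7870 to 8680, and endothelial markers (6 of 6) to 2653 to 3818 and 2219 to 3981. The ranges of the hepatocyte, stellate and endothelial sums overlapped between groups. With limma, as with edgeR, 1 marker passed, the globin gene Hbb-bs (named after its value was seen), at 2505 ± 284 in vehicle and 1117 ± 124 in SR4 (adjusted p = 0.0337), whose reads may be shared with its near copy Hbb-bt. That call was lost without vehicle library 2 (limma adjusted p = 0.0889) or vehicle library 3 (0.0623). Without SR4 library 2, which leaves 1 SR4 library, the call was not kept either, and the log2 fold change of Hbb-bs was −1.05. DESeq2 also called hepatocyte, macrophage, stellate, other globin and adipocyte markers. These were lower in SR4 except the hepatocyte marker Serpina1a, at 48730 ± 6018 in vehicle and 87690 ± 5450 in SR4 (DESeq2 adjusted p = 1.29e-05). Of the adipocyte markers 1 of 4 had an entry, Cidec, which steatotic hepatocytes also express, at 3746 to 5298 and 178 to 764. Cholangiocyte markers had 1 entry of 5 (Spp1, 1049 to 3513 and 717 to 1254), neutrophil markers 2 of 4 (15.6 to 41.8 and 15.1 to 17.3) and lymphocyte markers 0 of 6. The part of these cells in the values of the 10 genes was not tested.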

How the data were processed

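Liver RNA of 5 samples was sequenced. Per the labels' protocols, RNA came from an RNeasy Mini kit and libraries were built with TruSeq RNA V2, which does not mark strand. TopHat2 2.1.1, Partek and the build GRCm38 (mm10) are named in the submitters' processing notes. The counter and annotation used upstream are not given in the sources at hand. As deposited, the signal values were read counts per gene adjusted to a common library size, as the values themselves show: all 5 columns sum to about 25494249 and low values follow edgeR's quantile adjustment. Inverting it gave recovered reads, of which 85.3% of 37708 values from 1 to 1000 were whole within 0.02 reads.

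Of 11065 entries, 17 had a calendar date as symbol (0.177% of the deposited counts) and were left out. The values are not counts, so the test was limma on log2(value + 1) after division by TMM factors, which gives the normalised counts. Genes needed 10 or more in at least 2 libraries, shrinkage was robust with a mean trend, and p-values were adjusted by Benjamini-Hochberg over 10542 genes, with a threshold of 0.05. Fold changes on this scale understate the change of low genes. edgeR and DESeq2 on recovered reads, RLE, upper-quartile and equal-total scaling, pseudocounts of 0.5 and 10, no filter, a filter of 1 CPM, shrinkage without the robust option, a block on replicate number and leaving out single libraries were alternatives. Scripts were tested on simulated data.

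The members and lists were chosen with earlier results of these data known. Named were all 10 members, every list gene that passed, and up to 3 per list with the smallest p. The 3 genes most like Hspd1 and the 3 most like Clpp were added, without predicted or unnamed genes. List symbols were matched directly or through RefSeq synonyms. Transcript lengths and coordinates are GENCODE M21's, and promoter windows RefSeq's. Software was R 4.3.3, limma 3.58.1, edgeR 4.0.16, DESeq2 1.42.0, Python 3.11.15 and matplotlib 3.10.9.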

Additional observations from a re-analysis of the deposited data

How the results depend on the processing

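No member passed limma's or edgeR's test under any alternative run, and DESeq2 called 1, Hspa9. An unadjusted limma p under 0.05 was seen for 3 members as reported, 2 with RLE scaling and 1 with the replicate block. With equal totals it was seen for 0, as without vehicle library 2, and for 1 without vehicle library 1 or 3. The number of all genes called was 138 as reported, 474 with the replicate block, 1079 with DESeq2, and 5 to 182 on leaving out each library. Replicate numbers were shared by only 2 pairs, whose deviations correlated at 0.174 and 0.114 over 10542 genes, and no label makes them pairs; with the block the members' median log2 fold change was 0.117 and 0 members were called. The median of the 10 was 0.0284 with equal totals and 0.112 to 0.26 on leaving out each library, highest without SR4 library 1. Leaving out an SR4 library leaves 1, which is assumed to vary like the vehicle libraries. With equal totals the log2 fold changes turned for Afg3l2 (−0.0198), Hspe1 (−0.083), Lonp1 (−0.0133), Trap1 (−0.00147), the scaffold gene Stoml2 (−0.0397), Atf5 (−0.0761) and Hsf1 (−0.0609). On leaving out each library, Hspe1 ran from −0.307 to 0.386, Yme1l1 from −0.061 to 0.0661 and Hsf1 from −0.208 to 0.33. The causes were not tested. Hspd1 (0.206 to 0.443), Hspa9 (0.223 to 0.377), Clpp (0.253 to 0.535), Clpx (0.0475 to 0.288) and Oma1 (0.0832 to 0.402) kept their direction under all 16 alternatives. The within-library ratios kept their sign on leaving out each library, from −0.521 to −0.0563 for Hspe1 to Hspd1 and 0.0124 to 0.414 for Clpp to Clpx. Counting error alone corresponds to a coefficient of variation from 0.785% to 4.43% for the 10 genes, and the observed spread within a group ran from 0.383% (Lonp1, SR4) to 33.3% (Hspe1, SR4).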
